A study of Homo sapiens with 6 samples.

Results

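The genes described here are the HSP70 chaperones HSPA1A, HSPA1B, HSPA4, HSPA4L, HSPA8, HSPA9, HSPA13 and HSPH1, the HSP70 cochaperone BAG3, and HSF1, the transcription factor of the heat shock response. They were chosen by name, 10 of the 22481 genes of the count table, and all 10 passed the filter on low counts. RNA was sequenced from 143B cells, an established human osteosarcoma line, grown in 6 wells of 1 plate for 24 h before celastrol, a plant triterpene, was added to 3 wells for another 24 h. The other 3 wells were controls, collected at the same time. The labels name no celastrol dose and no vehicle for the controls. Replicates are therefore wells of 1 plate of 1 line, and p-values speak only to variation among these wells, some of which may be technical. Fewer cells expressing a gene and less RNA per cell cannot be told apart in these bulk samples.

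HSP70 proteins bind exposed stretches of unfolded proteins and release them through cycles of ATP binding and hydrolysis. J-domain proteins start the cycle, and nucleotide exchange factors, among them the HSP110 proteins and the BAG proteins, end it by freeing ADP. HSPA8 is the constitutive cytosolic form, whereas HSPA1A, HSPA1B and HSPA6 are switched on by HSF1, which under stress forms trimers and binds inverted repeats of GAA (heat shock elements) in their promoters. Celastrol is known from other cell systems as an activator of HSF1.

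The 6 libraries totalled between 38.4 and 39.5 M counts. A gene with 0 counts could still be present at up to 0.076 to 0.078 CPM (counts scaled to 1 M per library), counting error only. Wells of the same group were not duplicates, since each pair had a chi-square of 6.62 to 22 per degree of freedom over genes. The pairs with control replicate 1 had the highest values (19.3 and 22, against 10.9 for control replicates 2 and 3). The second principal component (8.62% of variance) set that well at 21.8 and the other controls at -4.79 and -13.6. Of the mesenchymal and osteoblast markers, VIM (2499 to 3559 CPM), SPARC, SPP1, RUNX2, COL1A1 and ALPL were read in every well, while COL1A2, SP7 and BGLAP stood at or near 0. Among markers of other cell types, PTPRC, PECAM1, CDH1 and ALB were at or near 0, but KRT18 (899 to 977 CPM), CD68 (140 to 207 CPM) and EPCAM (5.71 to 7.14 CPM) were read in every well.

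The upstream sequences below show what the stress-induced genes and HSPA8 share in front of their start sites. HSPA6 is outside the set but is shown because a result turns on it. The J-domain protein gene DNAJB1, also outside the set, was searched as well and had no match to show. In the 250 bases before a single RefSeq start of each gene (GRCh38.p14), pairs of inverted units were searched as GAANNTTC or TTCNNGAA, and triplets as GAANNTTCNNGAA or TTCNNGAANNTTC. Each of the pair patterns reads the same on both strands, the triplets are each other's reverse complement, and a triplet holds overlapping pairs. Capitals mark the matched units, and 8 bases are shown on either side.
HSPA1A, chr6:31815429-31815452, plus strand: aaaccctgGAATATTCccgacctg
HSPA1B, chr6:31827625-31827648, plus strand: aacccctgGAATATTCccgacctg
HSPA8, chr11:123062346-123062374, minus strand: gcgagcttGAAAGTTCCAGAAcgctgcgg
HSPA8, chr11:123062171-123062199, minus strand: cgggccccTTCTGGAAGGTTCtaagatag
HSPA6, chr1:161524352-161524375, plus strand: atctgcccGAACCTTCtcccgggg
HSPA6, chr1:161524458-161524486, plus strand: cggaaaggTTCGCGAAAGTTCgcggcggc

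HSPA1A and HSPA1B each held 1 pair, 106 to 99 and 105 to 98 bases before the start, and their upstream windows were identical at 235 of 249 aligned bases (94.4%). HSPA8 held 2 triplets, the nearer 55 to 43 bases before its start. All 250 bases of its window also lie in exons of longer transcripts in GENCODE 29. HSPA6 held a separate pair and a triplet 74 to 62 bases before its start. Of the 9 genes of the set with a window in the RefSeq table, 3 held a pair and 1 a triplet, against 11.6% and 0.441% of 35116 promoters. These are matches of letters. The windows without them (HSPA4, HSPA4L, HSPA9, HSPA13, HSPH1, BAG3 and, outside the set, DNAJB1) say nothing of sites elsewhere.

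One control well stood apart in some heat shock genes. HSPA6, an HSP70 that is hardly expressed in unstressed cells (NCBI gene 3310, chromosome 1, 161524540 to 161526894), had 620 counts in control replicate 3 and 5 counts each in control replicates 1 and 2. The celastrol wells had 7, 10 and 6 counts of it. Scaled for depth, control replicate 3 was 123-fold above the other controls (95% exact binomial interval 66.5 to 258, counting error only). That was the highest ratio among the 13337 genes with at least 1 CPM in that well. Since genes were kept by their level in that same well, HSPA6 entered the ranking only through it. Its rank is a description and no test. HSPA6 did not pass the filter on low counts, and without a filter edgeR gave an adjusted p of 0.253 for celastrol against control.

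In the same well HSPA1A was 3.12-fold and HSPA1B 2.22-fold above the mean of control replicates 1 and 2, ranks 13 and 43 of the 13337 genes. HSPH1 was 1.48-fold above that mean, while HSPA8 (1.09), HSPA9 (1.05), HSPA13 (1.15), BAG3 (1.12) and HSF1 (1.01) were close to it. Of the 10 genes, 2 reached 1.5-fold there, against 3.44% of the 15387 genes tested, and the same 2 reached 2-fold, against 1.27%. Among 25 tested HSF1 targets outside the family, 2 reached 1.5-fold, against the same 3.44%. They were the J-domain protein gene DNAJB1 (1.86) and the arsenite-inducible zinc finger gene ZFAND2A (1.52). In the other lists described below, 1 of 6 tested HSP70 genes reached it, the ER chaperone gene HSPA5 (1.52). So did 2 of 6 BAG3 partners, HSPB8 and HSPB6, at 1.14 and 0.442 CPM in that well. Of 11 exchange factors and cofactors and of 10 HSF factors and regulators, 0 did. The labels give nothing that sets this well apart, so group differences of the 10 genes that rest on it are given with and without it.

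**Figure D1:**
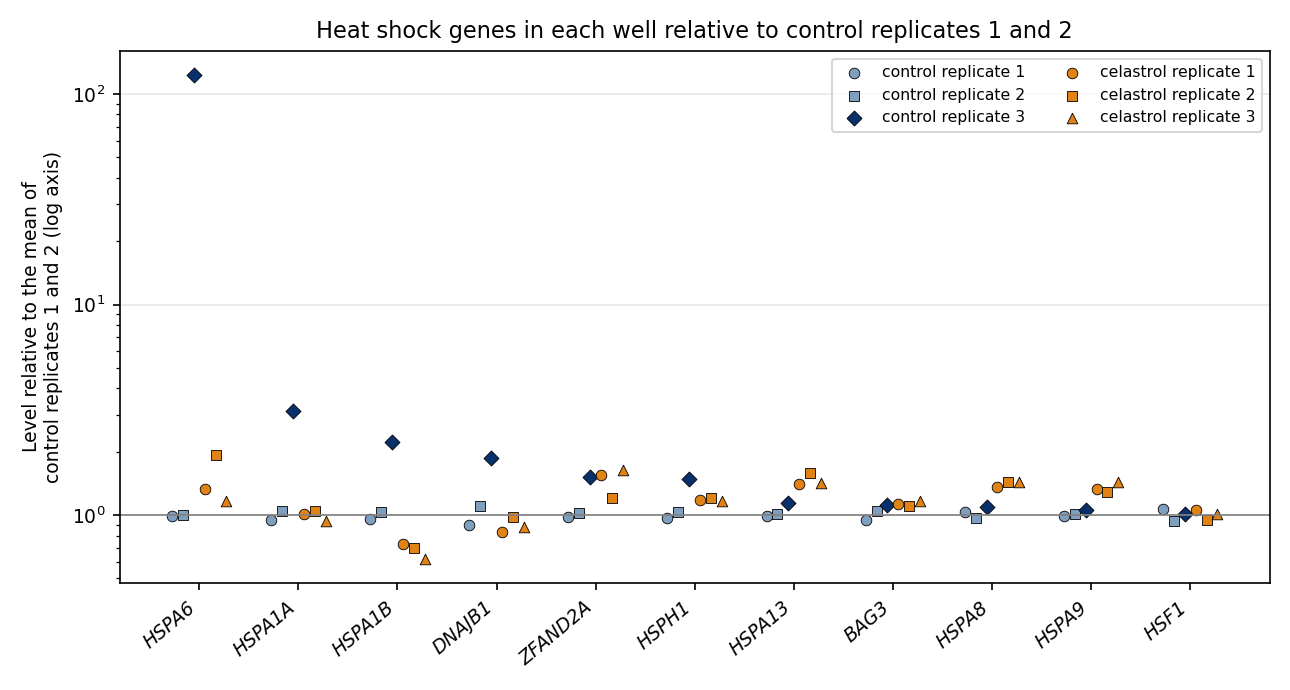
TMM-scaled CPM of each gene in each of the 6 wells, divided by its mean in control replicates 1 and 2 (log axis, 1 point per well, dark diamonds for control replicate 3, orange for celastrol). Control replicate 3 lies at 123 for HSPA6, 3.12 for HSPA1A, 2.22 for HSPA1B and 1.86 for DNAJB1. All celastrol wells are above both other controls for HSPA8, HSPA9, HSPA13, HSPH1, BAG3 and ZFAND2A, and below them for HSPA1B. They are also above them for HSPA6, at 6 to 10 counts against 5.

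Celastrol wells were set against control wells to ask how these transcripts differed after 24 h. HSPA8, HSPA9 and HSPA13 rose by 1.33- to 1.40-fold, and the stress-induced copies HSPA1A and HSPA1B did not rise in any celastrol well above all of the controls. Of the 10 genes 3 were called in either direction, against 48.4% of all 15387 genes tested. All 3 were higher, against 23.6% of genes, and 0 were lower, against 24.8% (edgeR, 0 lower also at an unadjusted p under 0.05, 1 lower by DESeq2 and by limma-voom). A gene was called at an adjusted p under 0.05. The groups did not overlap in 4 of the 10, against 56.9% of genes. The median log2 fold change was 0.015 over the 10 genes and -0.0002 over all genes tested. Without control replicate 3, 4 were higher and 1 (HSPA1B) lower, against 20.5% and 21.2% of all genes in that fit. Without control replicate 1, 3 were higher and 1 (HSPA4L) lower, against 25.7% and 25.8%. Such counts over 10 genes turn on 1 or 2 genes and were not tested against the background.

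Per length, the genes spanned a wide range in the control wells. HSPA8 stood at 1708 ± 95.1 FPKM (SD, n = 3), more than all the other genes of the set together. HSPA9 followed at 92 ± 2.26 FPKM. HSPA4 (51.1 ± 3.09 FPKM), HSF1 (47.8 ± 3.10) and BAG3 (45.6 ± 3.39) came next, with overlapping spreads. Well by well, HSPA4 was above BAG3 in every control (47.5, 52.6 and 53.1 against 42, 46.1 and 48.7 FPKM). HSF1 was above both in control replicate 1 and below both in control replicates 2 and 3. HSPH1 (32.3 ± 7.48), HSPA1B (21.1 ± 10.4), HSPA1A (9.92 ± 7.03) and HSPA13 (8.75 ± 0.643 FPKM) followed, with overlapping spreads between neighbours. The spreads of the first 3 are widened by control replicate 3. In every control well HSPH1 was above HSPA1B, and HSPA1B above HSPA1A. Over control replicates 1 and 2 alone, HSPA1B was at 15.1 and HSPA1A at 5.86 FPKM, which put HSPA1A below HSPA13 (8.38 FPKM). HSPA4L was lowest at 3.25 ± 0.250 FPKM. That place rests on its gene length of 12191 bases, the longest of the set. By CPM its control mean (40.25) was above those of HSPA13 (35.05) and HSPA1A (24.25). In the celastrol wells HSPA13 (12.6 ± 0.831 FPKM) stood above HSPA1B (10.6 ± 0.928) and HSPA1A (6.01 ± 0.369). HSPA13 was thus above HSPA1A in every well but control replicate 3, and above HSPA1B in every celastrol well and in no control well.

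**Figure D2:**
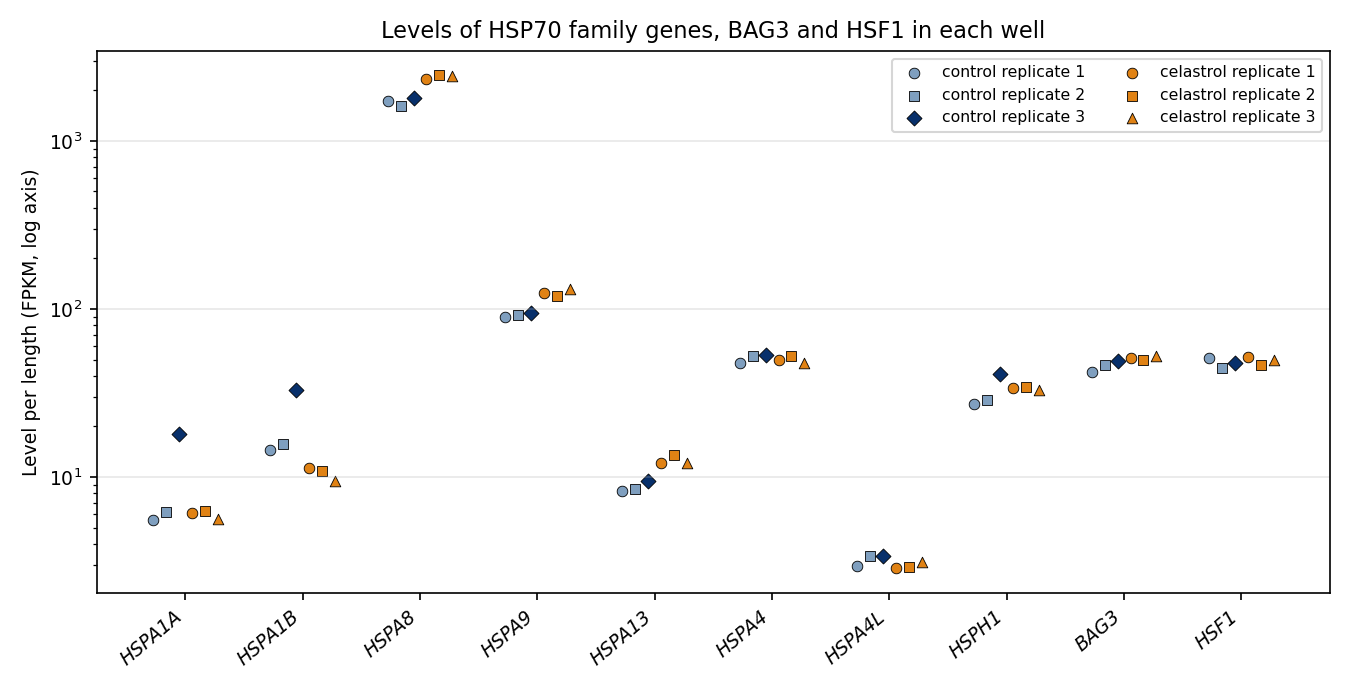
Level per length (FPKM, log axis) of the 10 genes in each of the 6 wells, 1 point per well. HSPA8 lies between 1606 and 2453 FPKM, and HSPA4L between 2.87 and 3.40 FPKM. The control replicate 3 diamonds stand clear of the other wells for HSPA1A and HSPA1B.

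HSPA1A (NCBI gene 3303, chromosome 6, 31815543 to 31817942) and HSPA1B (gene 3304, chromosome 6, 31827738 to 31830254) encode the major stress-induced cytosolic HSP70. HSPA1A had 13.5, 14.9 and 44.3 CPM in control replicates 1, 2 and 3 and 14.5, 14.9 and 13.3 CPM in celastrol replicates 1, 2 and 3. The celastrol wells and the first pair of controls thus lay within 13.3 to 15 CPM, with control replicate 3 far above. The log2 fold change was -0.77 ± 0.56 (SE, adjusted p = 0.331) and, without control replicate 3, -0.0003 ± 0.13 (adjusted p = 0.999). Without control replicate 1 it was -1.06.

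HSPA1B had 36.9, 39.8 and 85.1 CPM in control replicates 1, 2 and 3 and 27.9, 26.9 and 23.7 CPM in the celastrol wells. Every celastrol well was below every control well. With all 6 wells edgeR did not call it (-1.04 ± 0.40, adjusted p = 0.0954), whereas DESeq2 did (adjusted p = 0.0237), as did limma-voom (0.00352). Without control replicate 3 the difference was smaller but called by edgeR, at -0.55 ± 0.10 (adjusted p = 0.000564). Over the 15 alternatives its adjusted p ran from 0.000564 to 0.229, and its log2 fold change from -1.26 to -0.55.

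Reads from these 2 copies cannot be fully told apart. Of 2334 stretches of 150 bases, the read length, in the longest HSPA1A transcript of GENCODE 29, 1566 (67.1%) occur unchanged in HSPA1B, and 0 occur in HSPA8, HSPA6, HSPA1L or HSPA2. HSPA1B also shares 36.5% of its exon bases with the unnamed transcript AL671762.1 on the same strand. The rule by which such reads were counted was not stated in the labels. The counts of both copies were therefore also summed, at 50.4, 54.8 and 129 CPM in control replicates 1, 2 and 3 and 42.4, 41.8 and 37.1 CPM with celastrol. All celastrol sums were below all control sums. The sum was not called with all wells (-0.95 ± 0.45, adjusted p = 0.16) and was called lower without control replicate 3 (-0.38, adjusted p = 0.00381).

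HSPA1A took 26.8% and 27.3% of the counts of both copies in control replicates 1 and 2, 34.2% in control replicate 3 and 34.1% to 35.9% with celastrol. Control replicate 3 thus resembled the celastrol wells in this split while its total was the highest of all wells. Per length, both copies made up 1.15%, 1.34% and 2.77% of the cytosolic total with HSPA8 in control replicates 1, 2 and 3. With celastrol that share was 0.745%, 0.695% and 0.613%, below every control well. The share combines the lower HSPA1B with the higher HSPA8.

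**Figure D3:**
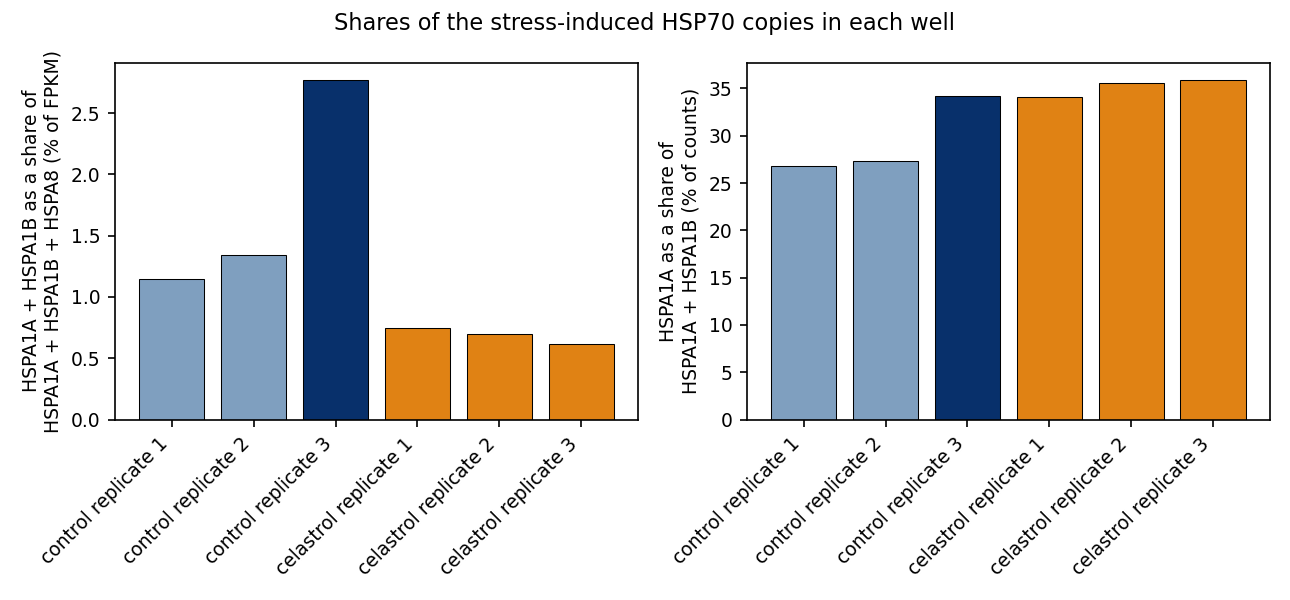
Bars, 1 per well, give the FPKM of HSPA1A and HSPA1B as a percentage of HSPA1A, HSPA1B and HSPA8 together (left) and the counts of HSPA1A as a percentage of both copies (right). The left share is at most 0.745% with celastrol and 1.15% to 2.77% in controls, and the right share is 26.8% and 27.3% in control replicates 1 and 2 and 34.1% to 35.9% elsewhere.

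HSPA8 (gene 3312, chromosome 11, 123057489 to 123062462) encodes the constitutive HSC70, which also takes part in clathrin uncoating and chaperone-mediated autophagy. It had 3976, 3708 and 4194 CPM in control replicates 1, 2 and 3 and 5210, 5515 and 5548 CPM in celastrol replicates 1, 2 and 3. All celastrol wells were above all controls. The mean rose from 3959 ± 243 to 5424 ± 186 CPM, 1.37-fold (log2 fold change 0.45 ± 0.052, adjusted p = 2e-06). HSPA8 alone took 0.367% to 0.410% of all counts in controls and 0.530% to 0.560% with celastrol.

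HSPA9 (gene 3313, chromosome 5, 138553756 to 138575401) encodes mortalin, the HSP70 of the mitochondrial matrix, which drives protein import. It had 400, 409 and 425 CPM in control replicates 1, 2 and 3 and 539, 520 and 578 CPM with celastrol, with no overlap. The rise was 1.33-fold (0.41 ± 0.057, adjusted p = 1.3e-05). HSPA13 (gene 6782, chromosome 21, 14371115 to 14383146) encodes a short microsomal HSP70. It had 33.1, 33.8 and 38.3 CPM in controls and 47.2, 52.8 and 47.4 CPM with celastrol, again with no overlap. It rose 1.40-fold (0.49 ± 0.088, adjusted p = 0.000187). All 3 of these calls held in each of the 15 alternatives.

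The HSP110 genes encode large HSP70 relatives that act as nucleotide exchange factors. HSPH1 (gene 10808, chromosome 13, 31134973 to 31162388), the heat-inducible HSP105, had 156, 166 and 238 CPM in control replicates 1, 2 and 3 and 190, 194 and 187 CPM with celastrol. The celastrol wells lay above control replicates 1 and 2 and below control replicate 3. It was not called with all wells (0.028 ± 0.16, adjusted p = 0.904) and was called higher without control replicate 3 (0.24 ± 0.064, adjusted p = 0.00727). Without control replicate 1 or 2 its sign turned (-0.090 and -0.050).

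HSPA4 (gene 3308, chromosome 5, 133052013 to 133106449), the broadly expressed HSP110 member, had 229 to 260 CPM in controls and 227 to 247 CPM with celastrol. The groups overlapped (-0.073 ± 0.063, adjusted p = 0.36). HSPA4L (gene 22824, chromosome 4, 127781796 to 127840733) had 36.5, 41.9 and 42.4 CPM in controls and 34.4, 35.2 and 37.8 CPM with celastrol. It was not called (-0.17 ± 0.089, adjusted p = 0.124), except without control replicate 1, its lowest control (-0.24, adjusted p = 0.0194).

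BAG3 (gene 9531, chromosome 10, 119651380 to 119677819) links HSP70 to small heat shock proteins and to the autophagic clearance of damaged proteins. It had 109, 119 and 128 CPM in control replicates 1, 2 and 3 and 128, 126 and 133 CPM in the celastrol wells. Only control replicate 3 reached the celastrol range. The difference did not pass the test (0.12 ± 0.069, adjusted p = 0.156), nor did it without control replicate 3 (0.18 ± 0.070, adjusted p = 0.0549). Its adjusted p ran from 0.0534 to 0.451 over the 15 alternatives, and its log2 fold change ran from 0.059 to 0.18.

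HSF1 (gene 3297, chromosome 8, 144291604 to 144314720) had 116, 102 and 110 CPM in control replicates 1, 2 and 3 and 115, 103 and 111 CPM with celastrol. The groups covered the same range (0.0024 ± 0.070, adjusted p = 0.982). HSF1 is controlled largely through its protein, by phosphorylation, trimer formation and entry into the nucleus, which these data do not measure. On the opposite strand, DGAT1 shares 2.62% of its exon bases.

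**Figure D4:**
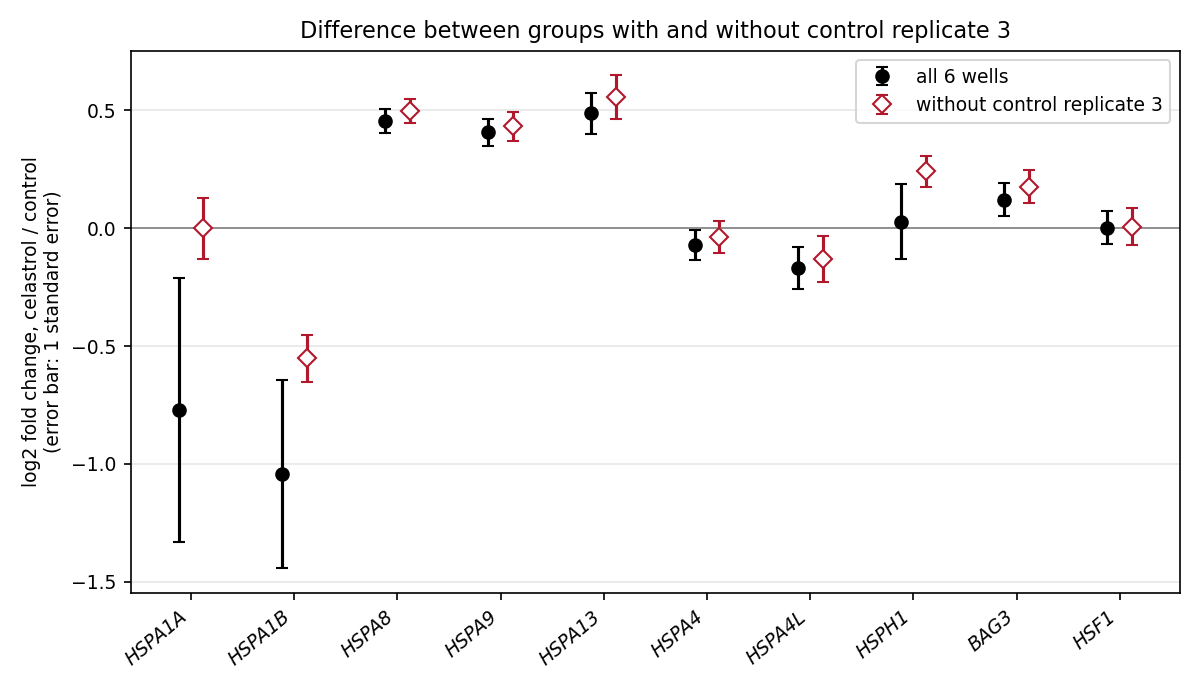
Log2 fold change of celastrol over control for the 10 genes, with 1 standard error, from edgeR on all 6 wells (filled circles) and without control replicate 3 (open diamonds). HSPA8, HSPA9 and HSPA13 lie between 0.41 and 0.56 in both, HSPA1A moves from -0.77 to -0.0003, HSPA1B from -1.04 to -0.55, and HSPH1 from 0.028 to 0.24.

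Other members of the HSP70 family went both ways, with 1 of 6 tested genes higher, 1 lower and a median log2 fold change of -0.24. That is near the background of 23.6% higher and 24.8% lower, and so no result about the family. The ribosome-associated HSPA14 rose from 18.9 ± 2.19 to 27.9 ± 1.14 CPM (0.56 ± 0.11, adjusted p = 0.000313). The divergent member HSPA12A fell from 28.4 ± 2.71 to 21.4 ± 1.62 CPM (-0.41 ± 0.10, adjusted p = 0.00341). HSPA2, a testis-enriched form, had 6.95 to 9.41 CPM in controls and 9.32 to 10.5 with celastrol, and HSPA1L 1.76 to 3.02 and 1.37 to 2.43 CPM. Neither of them was called. The ER chaperone HSPA5 had 641, 921 and 1188 CPM in control replicates 1, 2 and 3 and 601 to 637 CPM with celastrol (-0.57 ± 0.25, adjusted p = 0.13, and -0.34, adjusted p = 0.13, without control replicate 3), and its ER exchange factor HYOU1 had 318 to 359 and 323 to 327 CPM (adjusted p = 0.405). HSPA12B had at most 16 counts in any library, and HSPA7 was not found by that name in the count table. Without control replicate 1, 2 of these genes were lower, against 25.8% of all genes in that fit.

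Among 11 genes of HSP70 exchange factors and cofactors, 5 rose and 1 fell, against 23.6% and 24.8% of all genes, and their median log2 fold change was 0.14. BAG1, the exchange factor that couples HSP70 to the proteasome, rose from 58.7 ± 2.91 to 97.8 ± 4.92 CPM (0.74 ± 0.072, adjusted p = 2.55e-07). The cytosolic exchange factor HSPBP1 (0.65 ± 0.080, adjusted p = 3.6e-06) and the mitochondrial GRPEL2 (0.50 ± 0.088, adjusted p = 0.000158) rose as well. BAG2 (0.34) and STUB1, which encodes the ubiquitin ligase CHIP (0.26), were the other genes called higher. Without celastrol replicate 1 only 3 were higher, while over all genes 2955 rather than 3634 were. SIL1, the ER exchange factor, fell from 35.9 ± 1.62 to 26.2 ± 2.12 CPM (-0.46 ± 0.093, adjusted p = 0.000592). Thus 3 exchange factors outside the HSP110 genes rose by more on the log2 scale than HSPA8 did, though the differences between genes were not tested.

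Of 6 partners of BAG3 1 rose and 1 fell, near the 23.6% and 24.8% of all genes, with a median of -0.10. LATS1, a kinase of the Hippo pathway, rose (0.30 ± 0.086, adjusted p = 0.00846), but not without celastrol replicate 1, where 0 partners were higher. Over all genes 2955 rather than 3634 were higher in that fit. The actin crosslinker FLNC, a client of BAG3, fell from 575 ± 69.8 to 346 ± 33.8 CPM (-0.73 ± 0.087, adjusted p = 1.33e-05). The small heat shock protein HSPB8, which BAG3 binds, had 0.312 to 1.14 CPM in controls and 0.964 to 1.39 with celastrol (adjusted p = 0.253, and 0.102 without control replicate 3). In the HSF family, HSF2 fell from 25.1 ± 3.29 to 17 ± 0.367 CPM (-0.57 ± 0.11, adjusted p = 0.000471) and HSF4 from 10.1 ± 2.46 to 6.74 ± 1.03 CPM (-0.58 ± 0.18, adjusted p = 0.0129). The HSF4 wells overlapped. Of the 10 tested genes of HSF factors and HSF1 regulators these 2 were lower, against 24.8% of all genes, and 1 was higher, against 23.6% (median -0.13), the HSF2-binding HSF2BP (1.53, at 0.649 to 2.74 CPM), named after its value was seen. Without celastrol replicate 2, 1 was lower, and over all genes 3460 rather than 3815 were. Without control replicate 1, 1 was lower, against 25.8% of all genes in that fit. Without control replicate 3, 2 were higher, against 20.5%.

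Of 25 tested HSF1 targets outside the HSP70 family, 6 rose and 2 fell, with a median of 0.061. The rises are at the background of 23.6% and the falls below that of 24.8%, so the rises are no result about HSF1 targets as a group. SERPINH1, the collagen chaperone HSP47, rose from 93.9 ± 5.37 to 154 ± 12.3 CPM (0.71 ± 0.072, adjusted p = 3.58e-07). DNAJA1, a J-domain partner of HSPA8, rose from 221 ± 12.2 to 331 ± 7.22 CPM (0.58 ± 0.059, adjusted p = 4.07e-07), and HSPE1, the mitochondrial HSP10, from 25.1 ± 2.37 to 35.8 ± 5.68 CPM (0.51 ± 0.11, adjusted p = 0.0013). The death effector gene DEDD2 was among those that fell (-0.30 ± 0.096, adjusted p = 0.0143), and without celastrol replicate 1 or 2 only 1 of these targets was lower. Over all genes 3221 and 3460 were lower in those fits, rather than 3815. Without control replicate 3, 8 targets were higher, including the 6, against 20.5% of all genes in that fit.

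DNAJB1 and ZFAND2A, named after their values were seen, moved with control replicate 3. DNAJB1 had 106, 130 and 219 CPM in control replicates 1, 2 and 3 and 98.3 to 115 CPM with celastrol (-0.52 ± 0.31, adjusted p = 0.249; without control replicate 3, -0.16, adjusted p = 0.179). ZFAND2A had 11.4, 11.9 and 17.7 CPM in controls and 14.1 to 19 CPM with celastrol. It was called higher without control replicate 3 (0.55 ± 0.15, adjusted p = 0.00853) and not with it (0.32 ± 0.16, adjusted p = 0.119). HSPB1 (159 to 182 CPM in controls, 157 to 166 with celastrol) and HSP90AA1 (2738 to 3180 and 2846 to 3331 CPM) were not called, with adjusted p of 0.542 and 0.958.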

How the data were processed

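The authors deposited whole-number read counts per gene and FPKM values. HISAT2 2.2.1, cutadapt 1.9, StringTie 2.1.6, edgeR and DESeq2 are named, with build hg38, per the submitters' processing notes. Their roles, the annotation release and the use of strand in counting are not given in the sources used here. Per the labels' protocols, libraries were poly(A)-selected and strand-marked. The deposited FPKM values equal the counts scaled by gene length and library total (1 length per gene within 1e-06 in 20198 of 20198 genes with counts in 2 or more libraries). They served for levels between genes.

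The counts were filtered with filterByExpr (15387 of 22481 genes), scaled by TMM and tested with edgeR 4.0.16's quasi-likelihood test (robust, R 4.3.3, Benjamini-Hochberg over all genes tested). On simulated counts with known changes 7.93% of calls were false, somewhat above the threshold, and only 23.6% of the 1.25-fold changes were recovered. Far fewer genes were changed in the simulation than were called here, so these shares need not carry over. A gene not called may still differ by a small fold. CPM values are TMM-scaled, and a standard error is the log2 fold change over the root of F. DESeq2 1.42.0 and limma 3.58.1 were alternatives. Genes matched RefSeq by NCBI gene ID (GRCh38.p14, the assembly of hg38). Sequences are RefSeq's. HSF1 had no entry in the promoter table.

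The genes, lists and alternatives were chosen with earlier results of these data known. From each list, up to 3 called genes per direction with a log2 CPM of at least 2 were named by size. All genes of the list of other HSP70 members were named too, and for HSPA1B, HSPA8 and BAG3 the 5 genes of highest correlation, except that 2 genes under these rules are not reported here. BAG2, STUB1, HSPB1, HSPB8, HSP90AA1, DNAJB1, ZFAND2A and HSF2BP were named after their values were seen.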

Additional observations from a re-analysis of the deposited data

How the results depend on the processing

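Over 15 alternatives, the 10 genes kept direction and call in 137 of 150 values, and 3 were called higher in 14 of them (4 without control replicate 3). Genes called lower numbered 1 rather than 0 by DESeq2, limma-voom and limma on log2(FPKM + 1) or log2(FPKM + 0.1), HSPA1B in each, and 0 to 1 with each replicate left out (HSPA4L without control replicate 1, HSPA1B without control replicate 3). The sign turned for HSF1 with at least 10 CPM required in 3 libraries (-0.019), and with single replicates left out HSF1 ran from -0.047 to 0.046 and HSPH1 from -0.090 to 0.24. The summed HSPA1 copies ran from -1.19 to -0.38 with each replicate left out. The difference in their share of cytosolic HSP70 was -1.07 percentage points, and -0.562 without control replicate 3.

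Other HSP70 genes called lower were 2 rather than 1 by limma-voom and by limma on log2(FPKM + 0.1), and 1 to 2 with replicates left out. Exchange factors and cofactors called lower were 2 rather than 1 with at least 10 CPM or with the replicate block, and those higher were 3 to 5 with replicates left out. BAG3 partners called higher were 0 to 1. HSF factors and regulators called higher were 4 with library size alone, 0 with at least 10 CPM, and 3 by limma on log2(FPKM + 1) or log2(FPKM + 0.1), rather than 1. They were 1 to 2 with replicates left out, and those lower were 1 with at least 10 CPM rather than 2, and 1 to 2 with replicates left out. HSF1 targets called lower were 1 to 3. A filter at 10 CPM tests fewer genes; the cause of the other changes was not tested.

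Over all genes 3634 were higher and 3815 lower, and 4170 and 3382 with library size alone, which shifts the median by 0.041. With each replicate left out, those higher ran from 2932 to 4043 and those lower from 3145 to 4067. Same-numbered wells deviated from their group means with correlations of 0.0647, 0.0908 and 0.0518, so the replicate number was not taken as a pairing, although each well correlated best with its own number. With the replicate block 3831 genes were higher and 3928 lower, 3 of the 10 were higher and 0 lower, and no call among the 10 changed. At this depth genes of a few counts could hardly be compared. HSPA12B was not tested, and HSPB6, with 2 to 17 counts per library, had a wide error (-0.097 ± 0.74, edgeR adjusted p = 0.928).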

Other observations

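Genes whose levels most closely followed those of HSPA1B, HSPA8 and BAG3 over the 6 libraries were listed as a description, with no test, since all wells share 1 comparison. Pearson's r of log2 CPM was taken over genes whose mean log2 CPM reached 4. For HSPA1B these included RPL34 (r = 0.985), PDCD7 (0.984), AGFG1 (0.984) and DAPK3 (0.982), and 223 of 8569 genes exceeded 0.9. HSPA1B and each of these named genes were highest in control replicate 3. Their r values thus lean on that well, and they were not taken without it. For HSPA8 they were CCAR1 (0.998), CSTF2 (0.997), PSMB2 (0.997), DDX23 (0.996) and RAD51C (0.996), and 1549 of 8570 genes exceeded 0.9. For BAG3 they were CNBP (0.990), ATP6V1B2 (0.989), XBP1 (0.984), RTL10 (0.984) and SRP19 (0.980), with 168 of 8570 genes above 0.9. XBP1, a transcription factor of the unfolded protein response, had 113, 126 and 139 CPM in control replicates 1, 2 and 3 and 138, 130 and 145 CPM with celastrol.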
